A study of Homo sapiens with 6 samples.

Results

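The genes described here encode 10 proteins that the adult liver makes and releases into the blood: the fibrinogen chains FGA, FGB and FGG, the apolipoproteins APOA1 and APOE, the carriers TTR (transthyretin), ALB (albumin) and TF (transferrin), and the inhibitors SERPINA1 (alpha-1 antitrypsin) and AHSG (fetuin-A). They were taken by name out of the 62696 genes counted in each library, and no value entered that rule, although earlier results of these data were known when the names were chosen. They were measured in DMS53, an established line of NE small cell lung cancer (SCLC) cells, NE standing for neuroendocrine, grown in RPMI-1640 with 10% FBS. Control cells carried the empty lentiviral vector pLenti-C-mGFP-P2A-Puro, and OC2-OE cells carried a lentivirus with mGFP-tagged ONECUT2 (OC2), a homeobox transcription factor of the one cut family. Both were selected with puromycin, and the sources used here do not say whether they were pools or clones. The RNA-Seq data hold 3 control and 3 OC2-OE libraries, and the comparison asks which transcripts change when OC2 is enforced. The labels give the libraries only a number in each group, while the study calls them independent experiments. The p-values thus measure the spread between these libraries. Whether each library came from its own transduction is not stated, so spread between transduced lines may lie outside the p-values.

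Hepatocytes produce most of the protein of blood plasma, and OC2 and its relative ONECUT1 (HNF6) belong to the transcription factors of liver development, beside HNF4A, the FOXA factors and C/EBP proteins. During inflammation the liver makes more of some plasma proteins, the positive acute phase proteins such as fibrinogen and SERPINA1, and less of others, the negative acute phase proteins such as ALB, TTR and TF. Several of these genes stand in clusters of related genes, with the fibrinogen chains side by side on chromosome 4 and SERPINA1 among other serpins on chromosome 14.

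The libraries held between 16533284 and 19099337 counts. ONECUT2, the introduced gene, was counted 465, 412 and 394 times in the control libraries and 74031, 68853 and 72763 times in the OC2-OE libraries, which matches the labels. Libraries of a group differed by 1.32 to 2.06 times the variance that sampling of reads gives, and libraries of different groups by 93.8 to 105 times, so no library repeats another. In RNA from whole cultures, fewer cells with a transcript and less transcript per cell cannot be told apart.

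Among the 10 genes, 5 had enough counts to be tested and 5 were too low (FGG, APOA1, ALB, AHSG and TF). SERPINA1 and APOE were higher in OC2-OE cells, each 3.03-fold, and TTR was 6.57-fold lower. FGA and FGB did not pass the threshold, an adjusted p under 0.001 by the quasi-likelihood test of edgeR, corrected over 17307 genes after Benjamini and Hochberg. Of all tested genes, 27.8% were called higher and 28.7% lower, so calls in either direction were common in this comparison, and 2 higher and 1 lower among 5 tested genes is near these shares. The groups did not overlap for 4 of the 5 tested genes, whereas this was so for 73.2% of all tested genes.

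**Figure D1:**
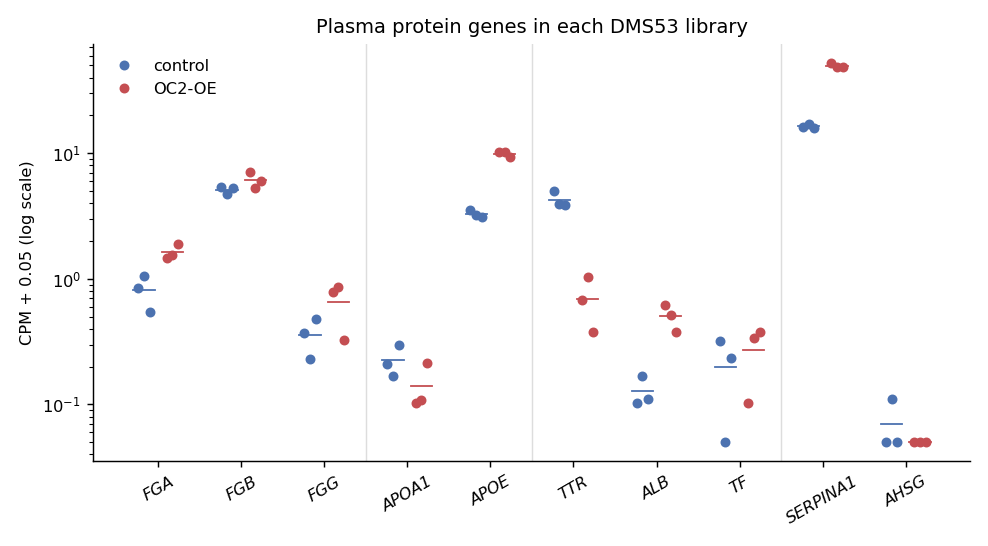
Each point is 1 library, with the CPM (counts scaled to the size of the library by TMM) plus 0.05 on a log axis, control in blue and OC2-OE in red, and short lines at the group means. SERPINA1 and APOE stand higher and TTR lower in all 3 OC2-OE libraries, while APOA1, TF and AHSG lie near the lower limit of the counts.

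To show the DNA next to these genes, stretches before the transcription start are given for the fibrinogen chains FGA and FGB and for ALB, which hold the letters TTGCNNAA that C/EBP proteins bind. The sequences come from the RefSeq promoter table (GRCh38.p14), are read 5′ to 3′ on the strand of the gene, and hold no exon base of the gene in GENCODE release 29 or in the annotation of the files. The ALB stretch lies inside the gene span that the files give, which begins at an exon further upstream. Capitals mark matches on either strand to the letters TTGCNNAA or to CTGGGAA, the letters of the type II acute phase element, and positions are counted back from the RefSeq start.
FGA, chr4:154590767-154590886, minus strand: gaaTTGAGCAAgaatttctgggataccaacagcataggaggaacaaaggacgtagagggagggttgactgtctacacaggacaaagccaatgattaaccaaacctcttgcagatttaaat
FGB, chr4:154562836-154562955, plus strand: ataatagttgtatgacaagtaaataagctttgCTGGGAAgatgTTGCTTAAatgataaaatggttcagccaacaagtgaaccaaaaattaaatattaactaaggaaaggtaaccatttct
ALB, chr4:73404119-73404238, plus strand: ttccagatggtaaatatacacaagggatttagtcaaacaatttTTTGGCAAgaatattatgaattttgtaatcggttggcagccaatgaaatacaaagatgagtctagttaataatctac
The first base of the TTGCNNAA match lay 141 bases before the start of FGA, 101 bases before the first listed start of FGB and 125 bases before the start of ALB, and the CTGGGAA match of FGB lay 112 bases before that start.

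The table held 13 windows, from 250 bases before to 50 after a start, for 8 of the 10 genes, and none was used for APOA1 and TTR. On both strands, CTGGGAA was found in 5 of the 13 windows, from FGB, FGG, APOE and AHSG, and 10.9% of all 34943 windows of this length hold it. TTGCNNAA was found in 6 of the 13, from FGA, FGB, ALB, AHSG and TF, against 10.5%. ATCAAT and ATCGAT, the letters of the one cut motif, were found in none of the 13 windows, against 6.27% and 0.76% of all windows. A gene with several starts had more than 1 window to hold a match. The windows of FGB overlap, so each of its matches was counted in more than 1 window. A match is only a run of letters. Among the called genes, APOE held CTGGGAA, SERPINA1 held none of these runs and TTR had no window. This is too few to relate matches to calls.

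SERPINA1 (chr14:94376747-94390693, minus strand), the main inhibitor of neutrophil elastase in plasma, was the most abundant of the 10 in both groups. It was counted 303, 289 and 259 times in the control libraries and 1003, 842 and 884 times in the OC2-OE libraries. Every OC2-OE library thus lay above every control library by a wide margin, and libraries within a group differed little. As CPM, counts scaled to the size of each library, the level was 16.4 ± 0.706 in control and 49.7 ± 2.18 in OC2-OE (SD, n = 3), a log2 fold change of 1.60 (SE 0.062, 95% interval 1.47 to 1.72, adjusted p = 1.75e-48 by edgeR). RefSeq lists 2 starts for SERPINA1, and counts per gene cannot say which of them the reads came from. Per length, in TPM (counts per exon length, scaled to the same sum in every library), the gene had a level above 47.9% of tested genes in control and above 73.0% in OC2-OE.

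AHSG (chr3:186613060-186621318, plus strand), a plasma glycoprotein that binds calcium phosphate, had the fewest counts of the 10. It had 0, 1 and 0 counts in the control libraries and none in the OC2-OE libraries. No ratio is given for it, and a group count of 0 allows up to 0.0547 CPM in OC2-OE.

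APOE (chr19:44905791-44909393, plus strand), the apolipoprotein through which remnant particles are taken up by receptors of the LDL receptor family, was counted 65, 53 and 50 times in control and 194, 175 and 170 times in OC2-OE. The lowest OC2-OE library was well above the highest control library. It reached 9.84 ± 0.450 CPM in OC2-OE against 3.23 ± 0.211 CPM in control (SD, n = 3), and the log2 fold change was 1.60 (SE 0.13, 95% interval 1.33 to 1.86, adjusted p = 2.60e-21 by edgeR). Of its exon bases, 0.882% are shared with another gene on the same strand.

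APOA1 (chr11:116835751-116837622, minus strand), the main protein of high density lipoprotein, was too low to test. It had 3, 2 and 4 counts in control and 1, 1 and 3 in OC2-OE, so the groups overlapped. The ratio of its summed counts, 5 in OC2-OE against 9 in control, was 0.525 with an exact 95% interval of 0.138 to 1.74, so that the counts do not settle a direction. Per length, the apolipoproteins had different levels in both groups, since APOE was at 6.14 ± 0.395 TPM in control and 19.2 ± 0.883 TPM in OC2-OE, and APOA1 at 0.653 ± 0.243 and 0.350 ± 0.242 TPM.

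TTR (chr18:31557009-31598833, plus strand), a carrier of thyroxine and of retinol-binding protein, was the only 1 of the 5 tested genes that fell. It was counted 93, 65 and 62 times in control and 12, 17 and 6 times in OC2-OE. The groups were far apart, although the OC2-OE libraries differed among themselves by more than the control libraries did in proportion. The mean was 4.22 ± 0.652 CPM in control and 0.644 ± 0.326 CPM in OC2-OE (SD, n = 3), and the log2 fold change was -2.72 (SE 0.25, 95% interval -3.21 to -2.22, adjusted p = 1.83e-18 by edgeR). Retinol-binding protein itself, RBP4, which circulates bound to TTR, was too low to test, with 7, 8 and 9 counts in control and 3, 1 and 1 in OC2-OE.

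ALB (chr4:73397114-73421482, plus strand), the most abundant plasma protein, was near the lower limit in both groups. It had 1, 2 and 1 counts in control and 11, 8 and 6 in OC2-OE. Every OC2-OE library was above every control library, yet the filter on low counts left ALB out of the test. The ratio of summed counts, 25 against 4, was 5.90 with an exact 95% interval of 2.04 to 23.3, which covers counting error only. In a fit of every gene with at least 1 count, the log2 fold change of ALB was 2.46 (SE 0.75, adjusted p = 0.00347 by edgeR), which is not past the threshold. Even in OC2-OE its level of 0.556 ± 0.150 TPM was above only 3.26% of tested genes.

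TF (chr3:133746040-133796641, plus strand), the iron carrier of plasma, had 5, 0 and 3 counts in control and 1, 5 and 6 in OC2-OE. The ranges of the groups overlapped. The ratio of its 12 to 8 summed counts was 1.42, with an exact 95% interval of 0.533 to 4.0. The exons that the annotation gives TF add up to 26038 bases, which lowers any level per length, and some of these bases are shared with SRPRB and another gene on the same strand.

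The fibrinogen chains are made in equal numbers for the finished molecule, which holds a pair of each. FGB (chr4:154563011-154572807, plus strand), the beta chain, was counted 100, 79 and 85 times in control and 135, 91 and 108 times in OC2-OE. The second OC2-OE library lay within the control range, so the groups overlapped. Its level was 5.09 ± 0.334 CPM in control and 6.06 ± 0.904 CPM in OC2-OE (SD, n = 3), and the log2 fold change was 0.26 (SE 0.14, 95% interval -0.01 to 0.53, adjusted p = 0.0854 by edgeR).

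FGA (chr4:154583128-154590745, minus strand), the alpha chain, was counted 15, 17 and 8 times in control and 27, 26 and 34 times in OC2-OE. All OC2-OE libraries were above all control libraries. The level was 0.769 ± 0.263 CPM in control and 1.59 ± 0.241 CPM in OC2-OE, a log2 fold change of 1.03 (SE 0.31, 95% interval 0.43 to 1.64, adjusted p = 0.00169 by edgeR), just outside the threshold of 0.001. FGG (chr4:154604134-154612967, minus strand), the gamma chain, was too low to test, with 6, 3 and 7 counts in control and 14, 14 and 5 in OC2-OE. The third OC2-OE library lay among the control libraries. The ratio of the 33 to 16 summed counts of FGG was 1.95, with an exact 95% interval of 1.04 to 3.79.

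The 3 chains were far from equal at the RNA level. Per length, FGB was at 4.76 ± 0.328 TPM in control, FGA at 0.801 ± 0.271 TPM and FGG at 0.352 ± 0.144 TPM. In OC2-OE the order was the same, with 5.82 ± 0.867, 1.70 ± 0.258 and 0.704 ± 0.336 TPM. FGA made up 13.1 ± 4.55% of the summed FGA and FGB counts in control and 20.9 ± 3.80% in OC2-OE. The shares overlapped between groups, from 8.60% to 17.7% against 16.7% to 23.9%, and the exact two-sided permutation test gave p = 0.200, where 3 against 3 libraries cannot go below 0.1.

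**Figure D2:**
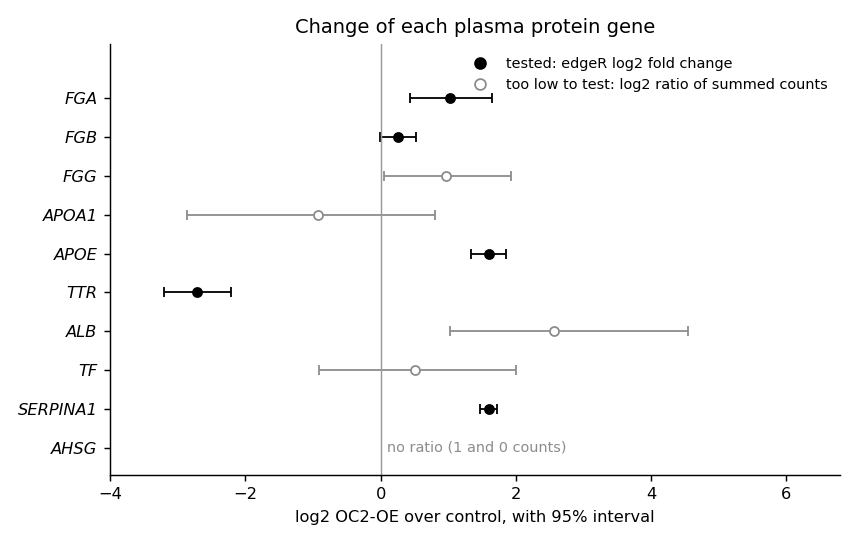
The horizontal axis is the log2 change in OC2-OE over control with its 95% interval. Filled points are edgeR estimates for the 5 tested genes, and open grey points are ratios of summed counts with exact counting intervals for 4 genes too low to test, of which ALB and FGG have intervals above 0.

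Ordered by level per length, SERPINA1 stood first in control at 13.7 ± 0.527 TPM, followed by TTR at 7.92 ± 1.22, APOE at 6.14 ± 0.395 and FGB at 4.76 ± 0.328 TPM (SD, n = 3). FGA, APOA1 and FGG came next, and neighbours among these 3 differed by less than their summed spread. ALB, AHSG and TF were lower still, with means of 0.0928, 0.0365 and 0.0237 TPM. The order of these 3 is not settled, since AHSG rests on 1 count and the long annotated exons of TF lower its level. In OC2-OE, SERPINA1 reached 42.6 ± 1.87 TPM and APOE came second, while TTR stood behind FGB and FGA at 1.24 ± 0.629 TPM. FGA and TTR differed by less than their summed spread in that group.

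The summed level of the 10 genes was 36.3, 33.9 and 33.3 TPM in the control libraries and 75.7, 71.6 and 69.4 TPM in the OC2-OE libraries. Without SERPINA1, the sums were 19.5 to 22.8 TPM against 27.9 to 30.9 TPM, which also did not overlap. Without both SERPINA1 and APOE, the 2 genes called higher, the direction turned, with 13.6 to 16.2 TPM in control and 9.72 to 11.2 TPM in OC2-OE. TTR alone, at 7.92 and 1.24 TPM, fell by more than this last sum. The make-up of the sum of all 10 genes changed too. SERPINA1 was 39.8 ± 2.55% of it in control and 59.0 ± 0.858% in OC2-OE, APOE 17.8 ± 0.311% and 26.6 ± 0.801%, and TTR 22.9 ± 2.43% and 1.72 ± 0.871%. FGB was 13.8 ± 0.889% of the sum in control and 8.05 ± 0.949% in OC2-OE, although its own level did not pass the test.

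**Figure D3:**
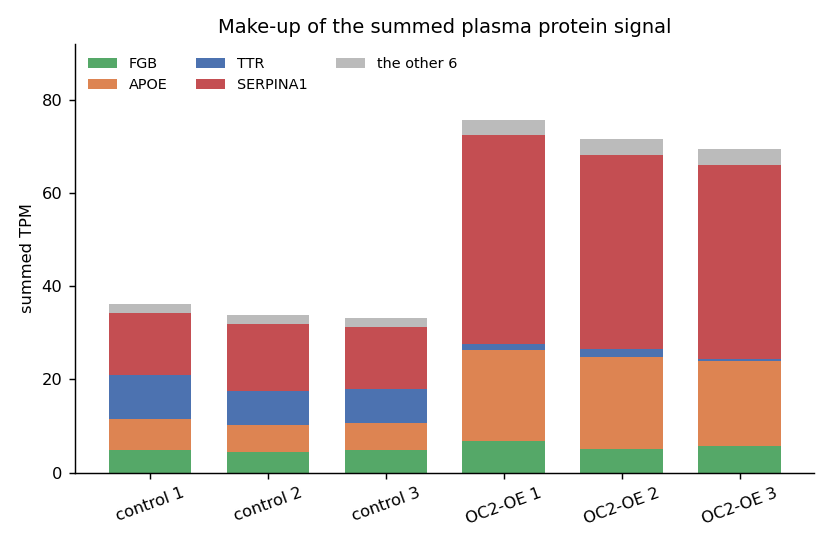
Bars give the summed TPM of the 10 genes in each library, split into FGB, APOE, TTR, SERPINA1 and the other 6 together. The 3 OC2-OE bars reach 69.4 to 75.7 TPM against 33.3 to 36.3 TPM for the control bars, and the TTR segment nearly vanishes in them.

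Other plasma proteins were taken from 5 lists of 80 genes without the 10 above. Of these, 30 were tested, and 13 were higher, 9 lower and 8 not called, where 27.8% and 28.7% of all tested genes were higher and lower, with a median log2 fold change of -0.04 against 0.01 over all tested genes. In all 6 libraries, 19 of the 80 had no count, among them SERPINA3 and LBP, ORM1 and ORM2, and SERPINA7, another thyroxine carrier.

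Among the carriers and binding proteins, 4 of 5 tested genes were higher and 1 was lower, where 27.8% and 28.7% of all tested genes were, and with so few genes the count says nothing of carriers as a class. GC, the vitamin D binding protein of the albumin family, was counted 52, 48 and 37 times in control and 2834, 2506 and 2711 times in OC2-OE. This took it from 2.64 ± 0.320 to 147 ± 2.19 CPM (log2 fold change 5.79, SE 0.070, adjusted p = 2.00e-102 by edgeR). ALB and AFP, the fetal albumin, are its relatives on chromosome 4, and AFP had only 4, 3 and 1 counts in control and 10, 2 and 3 in OC2-OE. SERPINA6, the cortisol carrier, rose with a log2 fold change of 3.29 (SE 0.32), and TTPA, which transfers vitamin E inside liver cells and is not itself a plasma protein, with 1.56 (SE 0.30). IGFBP1, which binds insulin-like growth factors, fell with a log2 fold change of -1.99 (SE 0.27). GC thus exceeded SERPINA1 per length in OC2-OE, at 294 against 42.6 TPM, whereas in control it was lower, at 5.14 against 13.7 TPM.

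Among the apolipoproteins, 2 of 5 tested genes were higher and 1 lower, against 27.8% and 28.7% of all tested genes. APOL1, the trypanolytic apolipoprotein, rose from 0.546 ± 0.103 to 9.06 ± 0.564 CPM (log2 fold change 4.05, SE 0.21), and CLU, the secreted chaperone clusterin, from 97.7 ± 2.26 to 346 ± 7.96 CPM (1.82, SE 0.029). APOD, a lipocalin, fell from 3.60 ± 0.192 to 0.498 ± 0.166 CPM (-2.85, SE 0.27). APOB and APOC1 were not called.

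Among the coagulation and fibrinolysis genes, 5 of 10 were higher and 3 lower, beside 27.8% and 28.7% of all tested genes. CPB2, whose product protects fibrin clots from lysis, had 1, 1 and 0 counts in control and 137, 132 and 120 in OC2-OE. With so few control counts the ratio is loose, at 184 with an exact 95% interval of 50.5 to 1522. VTN (vitronectin) rose with a log2 fold change of 1.94 (SE 0.19), PROS1 (protein S, a cofactor of anticoagulation) with 1.75 (SE 0.078) and F10 (factor X) with 1.73 (SE 0.33). The 3 lower genes, named after their values were seen, were the clotting inhibitor PROC (protein C, -1.59, SE 0.11), FGL1 (-1.53, SE 0.055) and F7 (factor VII, -1.14, SE 0.24). The summed level of the list was 132 to 134 TPM in control and 102 to 106 TPM in OC2-OE, and FGL1 alone, at 78.3 and 27.9 TPM, fell by more than the sum.

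Among the protease inhibitors, 1 of 5 tested genes was higher and 1 lower, against 27.8% and 28.7% of all tested genes. SPINK1, the pancreatic secretory trypsin inhibitor, was higher, from 355 ± 8.44 to 1077 ± 15.7 CPM (log2 fold change 1.60, SE 0.022). A2M, the broad plasma inhibitor alpha-2-macroglobulin, was lower, with 17, 11 and 13 counts against 3, 2 and 2. Among the acute phase and peptide hormone genes, 1 of 5 tested genes was higher and 3 lower, also against those shares. ANGPTL4, an inhibitor of lipoprotein lipase, rose from 17.7 ± 2.0 to 157 ± 3.28 CPM (3.16, SE 0.048). IGF1 (-2.28, SE 0.079), the growth factor HGF (-1.37, SE 0.048) and the angiotensin precursor AGT (-0.61, SE 0.036) fell.

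**Figure D4:**
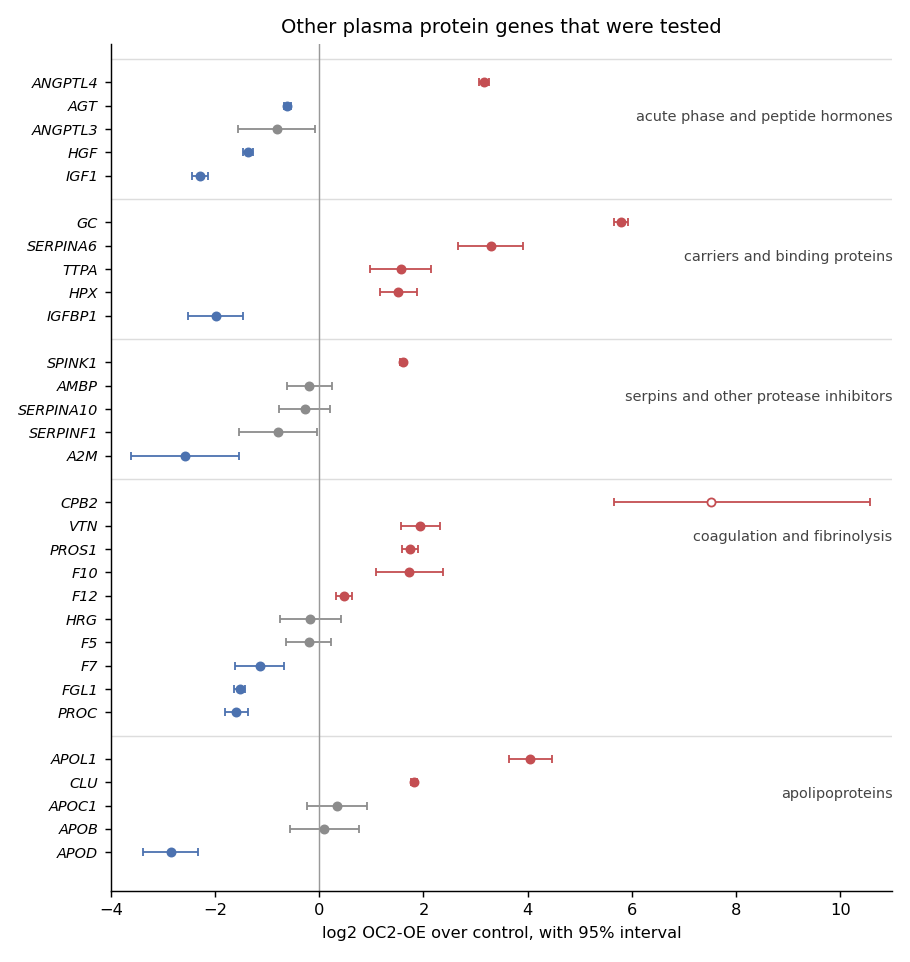
Each point is 1 of the 30 tested genes of the 5 lists, with the log2 change in OC2-OE over control and its 95% interval, red where called higher, blue where called lower and grey where not called. The open point is the count ratio of CPB2, and GC, APOL1, SERPINA6 and ANGPTL4 are the other genes with log2 fold changes above 3.

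Grouped by their behaviour in inflammation, both classes held genes that were called in each direction, as did the tested genes at large (27.8% higher and 28.7% lower). Of 18 positive acute phase genes, counting FGA, FGB, FGG and SERPINA1, 5 were tested, and SERPINA1 and HPX (hemopexin, 1.52, SE 0.18) were higher while FGL1, a fibrinogen-like protein of liver, was lower (-1.53, SE 0.055). CRP had no count in control and 1, 4 and 1 counts in OC2-OE, and SAA1 a single count in OC2-OE. SAA2 had 1 count in control and 17 in OC2-OE (ratio 16.1, exact 95% interval 2.52 to 671), and ITIH4, an inhibitor heavy chain, 1 and 14 (13.2, 2.01 to 559), and neither was tested. Of 12 negative acute phase genes, counting ALB, TTR, TF, APOA1 and AHSG, 4 were tested, with TTR and IGF1 lower and SERPINA6 and F12 (0.47, SE 0.077) higher. Genes of this class that were not tested had 4 counts of ITIH1 in control and 25 in OC2-OE (ratio 5.90, exact 95% interval 2.04 to 23.3), 5 and 0 counts of ITIH2 (interval up to 1.03), and 24 and 5 counts of RBP4. Of the positive class, HP (haptoglobin), too low to test and named after its values were seen, had 9, 6 and 11 counts in control and 0, 0 and 1 in OC2-OE. HP and HPR, SAA1 and SAA2, ORM1 and ORM2, and APOC1 and its pseudogene are near-identical copies whose shared reads were not counted, so their counts are uncertain.

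Genes next to the members were also compared, within 100 kb on either side. SERPINA6, 53358 bases from SERPINA1, was its only called neighbour that was higher, since PPP4R4 was lower (-0.72, SE 0.16). Next to APOE, the gene TOMM40 at 2102 bases was lower (-0.55, SE 0.033), NECTIN2 was higher (0.48, SE 0.043) and RELB, a subunit of NF-kB at 92068 bases, was higher (1.75, SE 0.055), while APOC1 was not called (0.34, SE 0.29). Next to TTR, DSG2 was higher (0.60, SE 0.053) and B4GALT6 lower (-0.51, SE 0.10). Around the fibrinogen genes, PLRG1 (0.19, SE 0.039) and LRAT (0.38, SE 0.097) were higher. SIK3 (0.71, SE 0.046) and ZPR1 (0.41, SE 0.035) near APOA1, DNAJB11 (0.21, SE 0.039) near AHSG and SRPRB (0.15, SE 0.040) beside TF were higher, and TOPBP1 (-0.46, SE 0.044) near TF was lower. No gene within 100 kb of ALB was tested.

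Receptors and enzymes that act on plasma proteins and lipoproteins were better covered, with 18 of 20 genes tested, 11 higher and 6 lower, and a median log2 fold change of 0.58 against 0.01 over all tested genes, of which 27.8% were higher and 28.7% lower. ASGR1 (-1.82, SE 0.20) and ASGR2 (-1.78, SE 0.32), the subunits of the liver receptor for desialylated glycoproteins, and LPL, the lipase of triglyceride-rich particles (-1.79, SE 0.12), fell. ABCG1, an exporter of cholesterol, rose (1.49, SE 0.070).

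The label of these genes as liver-type was checked against 22 hepatocyte genes whose products are not secreted. Of these, 8 were tested, 2 were higher and 3 lower, also against those shares, and CYP7A1, CYP8B1 and ADH4 had no count in any library. Their summed level was 19.2 to 20.7 TPM in control and 19.9 to 21.0 TPM in OC2-OE. CPS1, the first enzyme of the urea cycle, rose from 0.945 ± 0.204 to 6.07 ± 0.253 CPM (log2 fold change 2.67, SE 0.20), and BAAT, which conjugates bile acids, from 0.476 ± 0.145 to 3.03 ± 0.319 CPM (2.63, SE 0.29). UGT2B7 (-1.89, SE 0.44) and TAT (-1.56, SE 0.42) fell. SLC2A2, the liver glucose transporter, was too low to test and is named after its values were seen, with no count in control and 10, 11 and 7 counts in OC2-OE. CYP2E1, a cytochrome P450 of the liver, had 7.50 TPM in control and 4.23 TPM in OC2-OE (-0.86, SE 0.089), and SLCO1B1, a liver uptake transporter named after its values were seen, 6.94 and 6.06 TPM without a call. These levels are like those of TTR and FGB in control, so the hepatocyte markers were neither all absent nor raised together. The name liver-type describes where these proteins are usually made.

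All 12 NE markers were tested, 4 higher and 7 lower, to be read beside the same shares over all genes, with summed levels of 6046 to 6096 TPM in control and 7704 to 7785 TPM in OC2-OE. GRP (-4.41, SE 0.061), DDC (-2.52, SE 0.028) and NEUROD1 (-2.32, SE 0.033) fell. SCG2, a granule protein named after its values were seen, rose from 1268 to 3699 TPM, a rise larger than that of the sum. Of the markers of monocytes and macrophages, cells that also express SERPINA1 and APOE, LYZ (2.44, SE 0.33) and CD14 (0.71, SE 0.15) were higher, and these were the 2 tested of 10. Their summed level was 9.61 to 11.3 TPM in control and 19.3 to 23.5 TPM in OC2-OE, TYROBP and AIF1 had no count in any library, and PTPRC had 1 count in each OC2-OE library only. Of 13 alveolar and airway markers, 4 were tested and SFTPB (-3.25, SE 0.12), SFTPD (-2.93, SE 0.14) and FOXJ1 (-1.76, SE 0.049) fell, from a summed 171 to 184 TPM in control to 50.5 to 52.2 TPM in OC2-OE, and SFTPC had no count. The fourth, AGER, a marker of flat alveolar cells named after its values were seen, was not called (0.87, adjusted p = 0.00183 by edgeR). Of 10 fibroblast and endothelial markers, 6 were tested, 2 higher (PDGFRB, 2.48, SE 0.51, and COL1A1, 0.37, SE 0.067) and 2 lower (CDH5, with 17, 14 and 21 counts against 1 in each OC2-OE library, and KDR, -2.77, SE 0.16), with sums of 18.4 to 19.8 TPM and 15.8 to 17.4 TPM. The part of these markers in the levels of the plasma protein genes was not tested.

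Of 20 transcription factors of the liver and of the acute phase response, 15 were tested, 6 higher and 5 lower, where 27.8% and 28.7% of all tested genes were higher and lower. CEBPA rose from 0.840 ± 0.198 to 3.32 ± 0.394 CPM (log2 fold change 1.95, SE 0.25) and CEBPB from 24.9 ± 3.28 to 72.3 ± 4.53 CPM (1.54, SE 0.060), while XBP1 (-1.47, SE 0.023) and FOXA2 (-0.92, SE 0.038) fell. ONECUT1 was not called (0.19, adjusted p = 0.479 by edgeR).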

How the data were processed

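The authors prepared stranded poly(A) RNA-Seq libraries from DMS53 cells, aligned reads with STAR version 2.7.9a to GRCh38 and counted read pairs on GENCODE release 42 genes with featureCounts version 1.6.0. The deposited values are raw counts for 62696 genes, with no normalization. Reads matching several places or genes were not counted.

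Counts were normalized by TMM and tested with edgeR version 4.0.16 (quasi-likelihood, robust, no replicate term) in R version 4.3.3, for 17307 genes kept by filterByExpr. Benjamini-Hochberg adjustment ran over all of them, and genes were called under 0.001, the threshold of the study. TPM was computed from counts and the exon lengths in the files. Genes dropped by the filter were given as counts, with the ratio of summed counts and its exact conditional binomial interval at 95%, and a floor of 3 counts for a group at 0. Intervals and floors cover counting error only. When OC2-OE against control was simulated, 177 of 197 changed genes were recovered among 16978 genes, with 0 calls among 16781 others. The changed genes were few, moved in both directions alike and were not among the lowest in counts. Every gene was given the same small spread between libraries. Recovery there does not measure performance on the real comparison, where 27.8% of tested genes were called higher and 28.7% lower.

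The 10 genes and the lists were chosen with earlier results of these data known. The genes named are the 10, up to 4 genes with the largest absolute change among those called on each list, up to 3 called neighbours per gene, and markers at 0. Other genes named, among them RBP4, AFP, CRP, SAA1, SAA2, ITIH4, ITIH1, ITIH2, HP, PTPRC, APOB, APOC1 and ONECUT1, were chosen after their values were seen. Alternatives were other normalizations, DESeq2 version 1.42.0, limma voom (limma version 3.58.1), other filters and thresholds, TMM-scaled FPKM, ONECUT2 left out, a replicate block, and each library left out. A gene and a sequence motif are not reported here.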

Additional observations from a re-analysis of the deposited data

How the results depend on the processing

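SERPINA1, APOE and TTR kept their direction and stayed past the threshold in every alternative that could test them, with log2 fold changes of 1.57 to 1.65, 1.56 to 1.65 and -3.12 to -2.40. With at least 10 counts in every library, TTR and FGA were not tested, so 3 of the 10 genes were tested and 0 were called lower. With no filter on low counts all 10 were tested, and ALB (2.46), FGG (0.95), APOA1 (-0.88) and TF (0.50) were not called. FGA stayed outside 0.001 in each alternative run (adjusted p 0.00104 to 0.0244), and passed an adjusted p of 0.05, which gave 3 genes higher. With each library left out in turn, FGA ranged from 0.81 to 1.27 and FGB from 0.14 to 0.35, and FGG, tested in 4 of these 6 fits, from 0.69 to 1.30 and was not called. Without a filter, the list medians of hepatic transcription factors and of fibroblast and endothelial markers changed sign, to -0.07 and -0.02. The median of carriers and binding proteins moved from 1.56 to 0.53. Those of alveolar and airway markers and of negative acute phase genes moved from -2.35 to -1.76 and from -0.90 to -0.55.

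With the replicate block, FGA, FGB, APOE, TTR and SERPINA1 had log2 fold changes of 1.03, 0.25, 1.60, -2.72 and 1.60 with 2 genes called higher and 1 lower, as without it. Between control and OC2-OE libraries with the same number, deviations from the group had correlations of -0.005, 0.028 and 0.021. Between libraries with different numbers, the correlations ran from -0.029 to 0.007. Whether libraries with the same number were grown or prepared together was not tested. Library size alone moved the median of all tested genes to 0.06. Depth limits FGG, APOA1, ALB, AHSG and TF, whose summed counts were 33 or fewer in each group.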
